A study of Mus musculus with 15 samples.

Results

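The aminoacyl-tRNA synthetases, the enzymes that attach each amino acid to its tRNA, were followed here as a gene family. Members were the protein-coding genes of the RefSeq annotation of GRCm38.p6, the assembly of mm10, whose symbols name a synthetase for 1 of the amino acids. This gave 37 of 21883 protein-coding genes. The 17 whose symbol ends in 2 encode mitochondrial enzymes and the other 20 were counted as cytosolic. The rule used symbols and no peak, though the family was taken up with earlier results of these data known. A member was counted as occupied in a library when a called peak overlapped the gene or the 2500 bp beyond either end of it, and as called for a target when this held in at least 2 of 3 libraries.

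The data were CUT&Tag peak lists from HPC-7, a mouse early haematopoietic line derived from embryonic stem cells. In CUT&Tag an antibody brings a transposase to its target, which cuts and tags the DNA beside it. Control cells, called wild type in the titles and named for a luciferase shRNA in the descriptions, were profiled for H3K4me3, a histone mark of active promoters, for the transcription factor YY1 and for SMC3, a subunit of the cohesin ring. The knockdown arm, called shYY1 here and carrying an shRNA to YY1 that the descriptions name shYY1-2, gave SMC3 libraries only. Each of these 4 groups had 3 libraries. About 150000 cells went into each reaction, per the labels. The 3 IgG libraries were not analysed here, so signal that any antibody would give at open promoters was not measured. How far YY1 was depleted was not measured either.

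Cytosolic synthetases charge the tRNAs read by cytoplasmic ribosomes, and mitochondrial synthetases, which are encoded in the nucleus and imported, charge the tRNAs made from mitochondrial DNA. Most amino acids have a separate nuclear gene for each compartment. Gars and Kars are exceptions that supply both compartments, and glutamine has no separate mitochondrial enzyme. Several cytosolic synthetases sit together in a multisynthetase complex. YY1 binds DNA through zinc fingers at a core that reads GCCAT on 1 strand and ATGGC on the other, and in promoters this core often lies close to the transcription start.

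The promoters are shown first, because the position of the YY1 core differed between the members. RefSeq promoter sequences of GRCm38.p6, running from 250 bases before to 50 bases after a listed start, matched 27 of the 37 members. Both strands were searched for GCCATNTT and for ATGGC, and every GCCATNTT match also holds an ATGGC match. GCCATNTT was found in 5 of 27 member promoters, against 8.53% of 12105 promoters of genes with H3K4me3 and 6.37% of all 21262 promoters. The 5 were 4 of 14 mitochondrial promoters (Wars2, Lars2, Yars2 and Aars2) and 1 of 13 cytosolic promoters (Farsa, with 2 matches). All 6 matches read AANATGGC along the strand of the gene, as did 62.6% of 1115 matches in promoters of genes with H3K4me3. The 4 mitochondrial matches lay in the 50 bases after the start, where 3.08% of promoters of genes with H3K4me3 held one in that orientation. The 30 bases around each match are given 5′ to 3′ along the gene strand, with the match in capitals.

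Wars2, chr3:99141085-99141114, + strand: ccgcccttctcAAGATGGCgctgttctctg

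Lars2, chr9:123366936-123366965, + strand: gttgttttgccAACATGGCggcgcccagag

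Yars2, chr16:16302970-16302999, + strand: gcgtgtcccgcAAGATGGCggcgcccatgc

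Aars2, chr17:45506840-45506869, + strand: tgcccggagctAAGATGGCggtggcgttgg

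Farsa first site, chr8:84856881-84856910, + strand: ttgccacacttAAGATGGCgacgaccagct

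Farsa second site, chr8:84856926-84856955, + strand: gcgccacactaAAAATGGCaacgcacgcgc

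Counted from the listed start as base 1, the match began at base 7 in Wars2, 21 in Lars2, 17 in Yars2 and 20 in Aars2, and at -94 and -49 in Farsa. Aars2 has 2 listed starts, and the first was used here. A match is a description of the letters and no evidence of a bound site. The shorter ATGGC was found in 8 of 14 mitochondrial and 6 of 13 cytosolic member promoters, against 39.2% of promoters of genes with H3K4me3.

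The next sequences are the 250 bases before the listed start of members at the extremes of the peak calls, again 5′ to 3′ along the gene strand and with ATGGC in either orientation in capitals. Eprs, Yars and Fars2 had SMC3 at the start in all 6 SMC3 libraries. Gars and Sars had YY1 in no library.

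Eprs, chr1:185362794-185363043, + strand: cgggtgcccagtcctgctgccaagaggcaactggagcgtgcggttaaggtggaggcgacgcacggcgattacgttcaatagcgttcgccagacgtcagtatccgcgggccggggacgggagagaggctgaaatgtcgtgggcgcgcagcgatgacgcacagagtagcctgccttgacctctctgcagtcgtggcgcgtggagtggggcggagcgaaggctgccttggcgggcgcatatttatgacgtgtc

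Yars, chr4:129189653-129189902, + strand: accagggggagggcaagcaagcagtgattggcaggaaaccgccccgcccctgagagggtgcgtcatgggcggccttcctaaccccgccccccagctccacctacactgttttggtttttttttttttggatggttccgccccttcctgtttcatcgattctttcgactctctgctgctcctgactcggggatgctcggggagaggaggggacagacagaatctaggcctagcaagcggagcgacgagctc

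Fars2, chr13:36117393-36117642, + strand: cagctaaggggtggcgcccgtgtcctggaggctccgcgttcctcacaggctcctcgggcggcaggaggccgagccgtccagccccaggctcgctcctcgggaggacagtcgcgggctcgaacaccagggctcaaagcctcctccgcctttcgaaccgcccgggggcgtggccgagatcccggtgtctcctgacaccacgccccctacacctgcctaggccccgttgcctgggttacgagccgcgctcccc

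Gars, chr6:55037751-55038000, + strand: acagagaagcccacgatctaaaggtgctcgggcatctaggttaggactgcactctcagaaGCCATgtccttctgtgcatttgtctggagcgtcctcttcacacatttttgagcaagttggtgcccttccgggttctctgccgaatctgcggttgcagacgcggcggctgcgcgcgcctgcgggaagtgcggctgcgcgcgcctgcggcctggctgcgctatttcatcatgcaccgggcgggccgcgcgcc

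Sars, chr3:108445260-108445509, - strand: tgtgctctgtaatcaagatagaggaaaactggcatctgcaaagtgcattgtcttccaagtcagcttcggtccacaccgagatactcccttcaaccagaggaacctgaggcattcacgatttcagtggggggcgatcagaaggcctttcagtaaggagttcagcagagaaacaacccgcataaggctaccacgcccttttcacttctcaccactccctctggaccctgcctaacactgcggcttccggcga

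The only match in these sequences was at Gars, which reads GCCAT from base -190. The G+C content was 64.0% at Eprs, 59.2% at Yars, 71.6% at Fars2, 62.4% at Gars and 52.4% at Sars. Over all genes with H3K4me3, GCCATNTT was in 10.7% of 7980 promoters whose gene had YY1 and in 4.41% of 4125 promoters whose gene did not.

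H3K4me3 was called, in at least 2 of 3 libraries, at all 37 members, against 53.2% of all protein-coding genes. At each of the 37 it was found in all 3 libraries. In every member it reached within 1000 bp of a listed start, or of an end of the gene where no start is listed, against 89.5% of genes with H3K4me3. At Vars, the valine enzyme gene, the longest peak measured 2826, 1167 and 1147 bp in the 3 libraries. In libraries 2 and 3 the domain was broken into 3 peaks, so library 1 alone gave Vars the widest call. At Yars, the tyrosine enzyme gene, it measured 2086, 1468 and 1441 bp. At Qars, the glutamine enzyme gene, it measured 1686, 1636 and 1630 bp, but this peak covered the start of the neighbouring Qrich1, and the peak at the start of Qars itself measured 1145, 1137 and 796 bp. At Ears2, the mitochondrial glutamate enzyme gene, it measured 1745, 1603 and 1476 bp. The narrowest was Aars2, the mitochondrial alanine enzyme gene, with 486, 471 and 471 bp. As a mean over the libraries, the longest peak had a median of 1116 bp over the cytosolic genes (662.7 to 1713 bp) and 1001 bp over the mitochondrial genes (476 to 1608 bp), so the classes overlapped over most of their range. These medians are of gene windows and include neighbours' peaks, as at Qars. At Farsa the longest peak lay at Syce2 (1161, 1071 and 934 bp, against 883, 622 and 568 bp at its own start). At Aars it lay near Exosc6 in libraries 1 and 3 (1165 and 1136 bp, against 1032 and 912 bp at its start). The difference between the class medians is therefore no measure of the genes' own starts.

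**Figure D1:**
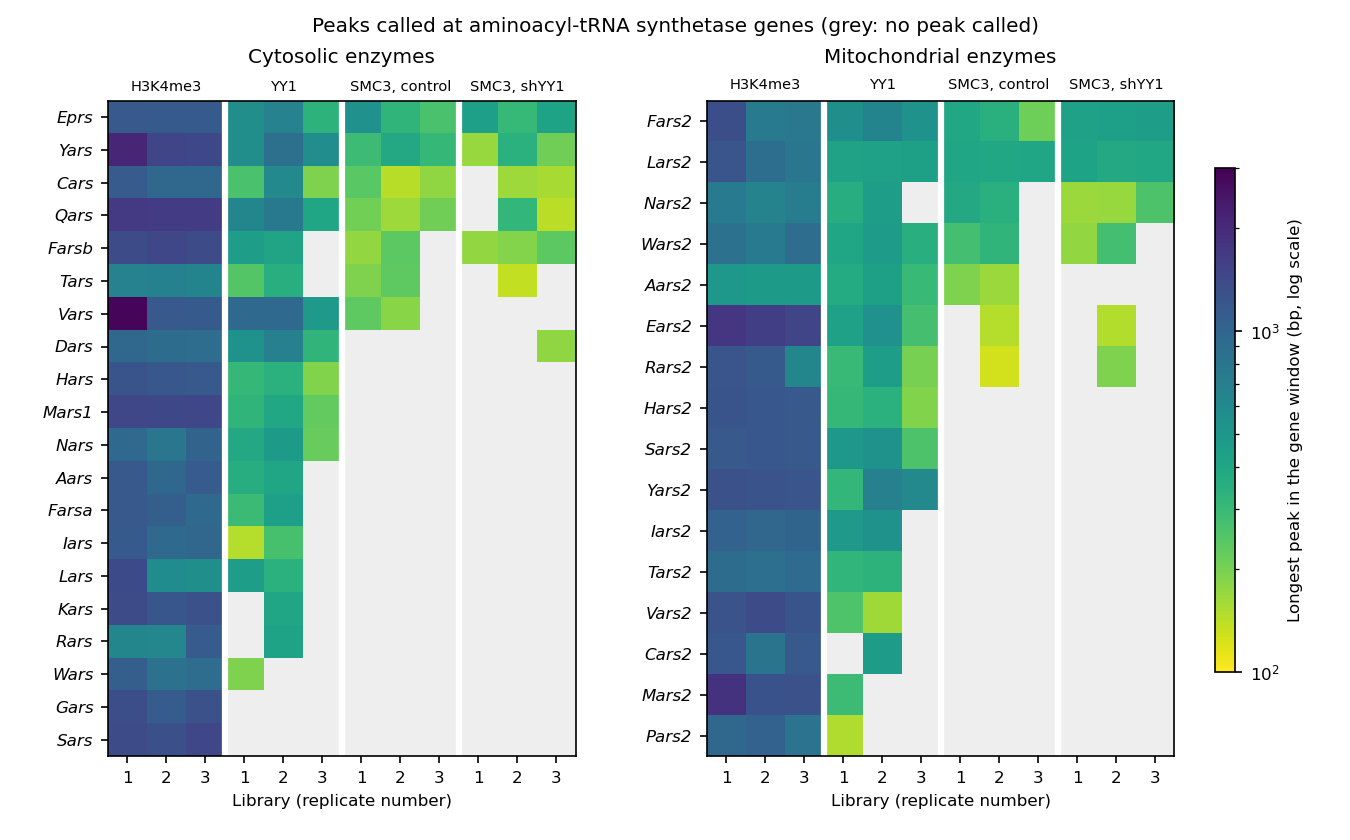
Each row is a gene and each column a library; colour gives the length of the longest called peak in the gene window (bp, log scale) and grey means no called peak. The 36 genes drawn carry H3K4me3 in every library, 18 of them have YY1 in all 3 libraries, and Eprs, Yars, Fars2 and Lars2 have SMC3 in all 6.

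YY1 was called at 29 of 37 members (78.4%), against 34.6% of all protein-coding genes and 64.8% of the 11642 genes with H3K4me3. In all 3 libraries it was called at 19 members (51.4%, against 33.6% of genes with H3K4me3), 9 cytosolic and 10 mitochondrial. All 29 also had it within 1000 bp of a listed start, or of a gene end where no start is listed, where 54.9% of genes with H3K4me3 had it. It was called at 14 of 17 mitochondrial and 15 of 20 cytosolic genes. In the 3 libraries, cytosolic genes were occupied at 80, 85 and 45% and mitochondrial genes at 94.1, 88.2 and 58.8%. The cytosolic share was lower in each library, with cytosolic minus mitochondrial differences of -14.1, -3.24 and -13.8 percentage points. Genes are not replicates, and the difference between the classes was not tested. The third YY1 library had 3750 peaks against 8469 and 10699 in the others and missed members of both classes: 19 members were occupied in it and 32 in each of the others. With library 1 or library 2 left out, YY1 was called in both remaining libraries at 9 cytosolic and 10 mitochondrial genes.

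YY1 peaks were long at the starts of Vars and Yars. At Vars they measured 943, 933 and 475 bp, and at Yars 560, 857 and 564 bp. At Qars the longest measured 626, 754 and 400 bp. It lay at the neighbour Qrich1 rather than at the synthetase's own start, where the region measured 486, 448 and 231 bp. At Vars and at Qrich1 the third library gave the shortest peak, while at Yars the first did.

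The 8 members without YY1 in at least 2 libraries were 5 cytosolic and 3 mitochondrial genes. Gars, the glycine enzyme gene that also supplies mitochondria, and Sars, the serine enzyme gene, had none in any library (5.41% of members, against 21.9% of genes with H3K4me3). Both had H3K4me3 in every library, of 1319, 1116 and 1283 bp at Gars and of 1354, 1306 and 1454 bp at Sars. Mars2 (methionine, 293 bp), Pars2 (proline, 149 bp) and Wars (cytosolic tryptophan, 193 bp) had a YY1 peak in the first library alone. Cars2 (cysteine, 463 bp), Kars (lysine, longest 401 bp) and Rars (cytosolic arginine, 419 bp) had one in the second alone. These single peaks were not all short: the longest at each gene in the second library was longer than that library's median YY1 peak of 365 bp, and those of the first library were shorter than the median of 314 bp there.

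Several pairs of cytosolic and mitochondrial counterparts differed in the number of libraries with YY1. Sars had it in 0 libraries and its mitochondrial counterpart Sars2 in 3, with 490, 522 and 257 bp. Rars had it in 1 library and Rars2 in 3, with 300, 446 and 200 bp, and Wars in 1 and Wars2 in 3, with 408, 460 and 355 bp. The reverse held for methionine, with Mars1 in 3 libraries and Mars2 in 1, and for cysteine, with Cars in 3 and Cars2 in 1. For tyrosine and histidine both genes had YY1 in all 3 libraries. Hars and Hars2 share peaks: their spans meet on chromosome 18, and 1 YY1 region, with peaks of 313, 341 and 191 bp, covers the ends of both, so they are 1 observation and not 2.

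Within the 27 members with a listed start, the YY1 summit, the highest point of a peak, was close to the start in both classes. Among members with YY1 at the start in at least 2 libraries, the median summit lay within 150 bp of it in 9 of 10 cytosolic and 10 of 12 mitochondrial genes. It was downstream in 5 of 10 cytosolic genes (median over genes -17.2 bp, from -270 to 137 bp) and in 8 of 12 mitochondrial genes (median 26 bp, from -113 to 234 bp). At Wars2 the 3 summits fell at 234 or 235 bp, and at Ears2 at -114 to -111 bp, so libraries placed these summits within a few bases. The H3K4me3 summits fell there too, at 234 bp at Wars2 and at -113 bp at Ears2. At Mars1 and Sars2 the YY1 summits spread over -646 to 105 bp and -89 to 75 bp. In Mars1 the third library had only the more distant of 2 YY1 regions, at chr10:127312233-127312458. Where the promoter held a GCCATNTT match after the start, the median summit lay at 7 bp for Lars2, -4 bp for Yars2, 66 bp for Aars2 and 234 bp for Wars2. For Aars2 the summit was measured from the nearer of its 2 listed starts and the match from the first, so these 2 positions have unlike origins. The match and the summit were thus close at Lars2 and Yars2 and far apart at Wars2.

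**Figure D2:**
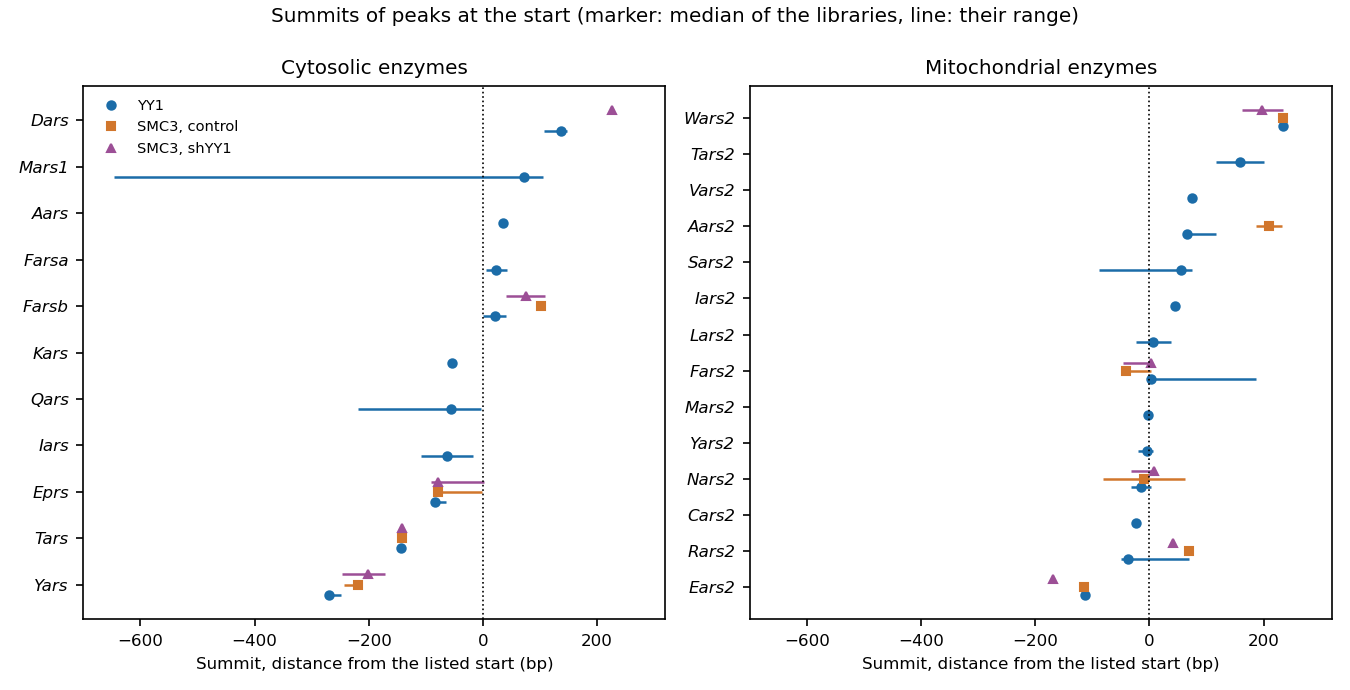
Horizontal position is the distance of the summit from the listed start (bp, negative upstream); markers are medians over the libraries with a peak within 1000 bp of the start and lines the range over those libraries. YY1 and control SMC3 summits sit together at Eprs, Tars and Wars2, while at Aars2 control SMC3 lies at 209.5 bp and YY1 at 66 bp.

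SMC3 in control cells was called at 13 of 37 members (35.1%), a share near the 32.6% of genes with H3K4me3 (17.5% of all protein-coding genes). It was called at 7 of 20 cytosolic genes (Eprs, Yars, Cars, Qars, Farsb, Tars and Vars) and 6 of 17 mitochondrial genes (among them Fars2, Lars2, Nars2, Wars2 and Aars2). The 13 were all among the 29 members with YY1 (44.8% of them), and none of the 8 other members had control SMC3 in any library. Among all genes with H3K4me3, control SMC3 was called at 49.4% of those with YY1 and 1.63% of those without; the members' split is near this background. No SMC3 peak in either arm was found at 21 members (56.8%, against 51.1%). YY1 without SMC3 in any library of either arm was found at Hars, Hars2, Mars1, Nars, Sars2 and Yars2 in 3 YY1 libraries. At Yars2, the mitochondrial tyrosine enzyme gene with the AAGATGGC site, the YY1 peaks measured 315, 686 and 602 bp, longer in libraries 2 and 3 than at several genes with SMC3.

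The SMC3 regions were split into those near the synthetase's own start, some of them shared with a neighbour, and those elsewhere in the window. Within 1000 bp of a listed start, or of a gene end where no start is listed, control SMC3 was called at 10 members. This was 27.0%, against 26.6% of genes with H3K4me3. The 10 were Eprs, Yars, Cars, Farsb, Tars, Vars, Fars2, Nars2, Wars2 and Aars2. The other 3, among them Qars and Lars2, owed their call to regions elsewhere in the window. At Qars the region (chr9:108516734-108517111) lay at the start of Qrich1, and the start of Qars, with YY1 in 3 libraries, had no SMC3. Yars is counted as near its start, but its control SMC3 summits lay at -219, -244 and -216 bp from it. They were 19, 6 and 22 bp from an end of the neighbour S100pbp, so the region cannot be given to Yars alone. Fars2 and Vars also have another gene close to their start.

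In Lars2, which encodes the mitochondrial leucine enzyme, the SMC3 region (chr9:123461800-123462207) lay inside the span near its far end, with a median SMC3 summit 95107 bp from the listed start. Peaks there were called in all 12 lists with nearly the same length: 405, 389 and 367 bp for H3K4me3, 424, 429 and 433 bp for YY1, 399, 388 and 404 bp for control SMC3 and 417, 385 and 396 bp for shYY1 SMC3. At the other regions named here with SMC3 that had H3K4me3, the longest H3K4me3 peak of each library was longer than every SMC3 peak, for example 1140 to 1156 bp against 264 to 539 bp at Eprs. At the listed start of Lars2 YY1 was called in 2 libraries, with 299 and 366 bp, and SMC3 in none. The third YY1 library had its only Lars2 peak in the distant region, so Lars2 has YY1 in all 3 libraries only through it. Whether this region would be called with any antibody, IgG included, was not tested. Its presence in every list is therefore no evidence of YY1 or SMC3 binding at Lars2. Whether the region is tied to Lars2 transcription was not tested either.

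Within 1000 bp of a start, Eprs, the fused glutamate and proline enzyme gene of the multisynthetase complex (chromosome 1, 185361417 to 185428360), had the longest mean control SMC3 peak. Its peaks measured 539, 322 and 264 bp in control and 439, 309 and 416 bp in shYY1, so the arms overlapped. Yars (chromosome 4, 129189734 to 129219240) had 291, 384 and 313 bp in control and 168, 341 and 210 bp in shYY1, again with overlap. Fars2, the mitochondrial phenylalanine enzyme gene (chromosome 13, 36117428 to 36537595), had 393, 348 and 211 bp in control and 430, 438 and 449 bp in shYY1. There every shYY1 peak was longer than every control peak. Nars2, the mitochondrial asparagine enzyme gene, showed the opposite order, with 383 and 348 bp in 2 control libraries, none in the third, and 166, 168 and 258 bp in the 3 shYY1 libraries. The order was the same at Wars2, with 278 and 323 bp in 2 control libraries and 174 and 275 bp in 2 shYY1 libraries, and at Tars, with 194 and 231 bp in 2 control libraries and 137 bp in 1 shYY1 library. Peak length can depend on depth, which is unknown here, and no test was made on single genes.

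**Figure D3:**
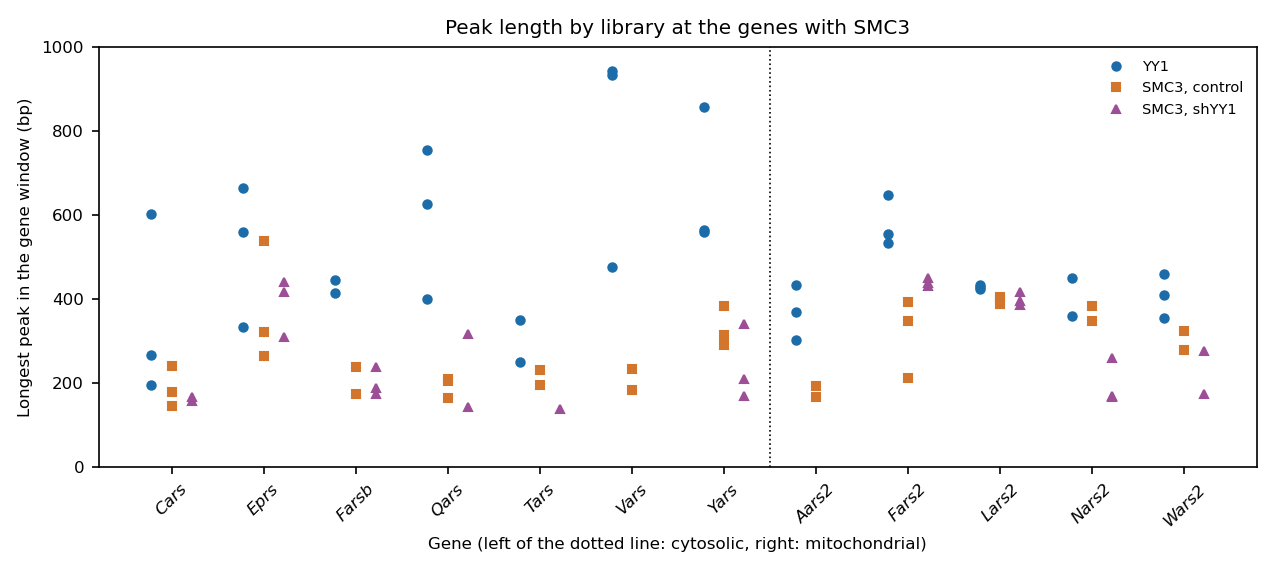
Vertical position is the length of the longest peak in the gene window (bp), with 1 point per library that had a peak, for 12 genes with SMC3 in at least 2 libraries of an arm. Points of control and shYY1 SMC3 overlap at Eprs and Yars, shYY1 lies above control at Fars2, and control lies above shYY1 at Nars2, Wars2 and Tars.

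Where both were at the start, the median summits of control SMC3 and YY1 lay 0.5 to 143.5 bp apart. At the 8 members with a listed start and both targets in at least 2 libraries, the median summits were 0.5 bp apart at Wars2, 1.5 bp at Tars, 6 bp at Eprs and 6.5 bp at Nars2. They were 43 bp apart at Fars2, 51 bp at Yars, 81.5 bp at Farsb and 143.5 bp at Aars2. At Nars2 the value hides a spread, with control SMC3 summits at -81 and 63 bp and YY1 summits at -33 and 2 bp. The YY1 and SMC3 summits of Tars, the threonine enzyme gene, all fell at -146 to -139 bp. The median H3K4me3 summit was also near that of YY1 at Wars2 (234 against 234 bp) and Eprs (-78 against -84 bp). The same held at Fars2 (2 against 2 bp), Yars (-271 against -270 bp) and Farsb (41 against 20.5 bp). It lay further off at Tars (-39 against -144 bp), Aars2 (185 against 66 bp) and Nars2 (186 against -15.5 bp). Close summits were thus not particular to YY1 and SMC3.

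The comparison of shYY1 with control asked whether SMC3 at these genes changed with the shRNA against YY1. SMC3 was called at 10 of 37 members in shYY1 (27.0%, against 24.7% of genes with H3K4me3 and 13.2% of all protein-coding genes), 5 in each class. Within 1000 bp of a start it was called at 7 members (18.9%, against 20.4%). Counted per library, the members with SMC3 made up 35.1, 40.5 and 18.9% in control and 21.6, 35.1 and 27.0% in shYY1. The arms overlapped: the third control library, with the shortest list (2061 peaks), had the lowest share of all. The mean was 31.5% ± 11.3 in control and 27.9% ± 6.80 in shYY1 (SD, n = 3). The shYY1 minus control difference was -3.60 percentage points (exact two-sided permutation p = 0.8, n = 3). With 3 libraries against 3 the smallest possible p is 0.1, so no such difference could pass 0.05. Without control replicate 2 the difference was 0.90 points, and without control replicate 3 it was -9.91 points. Over all genes with H3K4me3 the same difference was -6.06 points (exact permutation p = 0.4, n = 3). The members' share minus that of all genes with H3K4me3 was -0.34 ± 2.46 points in control and 2.12 ± 5.11 points in shYY1 (exact permutation p = 0.6, n = 3).

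By class, cytosolic genes had SMC3 at 35, 35 and 20% in the control libraries and 15, 30 and 30% in the shYY1 libraries. Mitochondrial genes had it at 35.3, 47.1 and 17.6% in control and 29.4, 41.2 and 23.5% in shYY1. The cytosolic minus mitochondrial difference was -0.29, -12.1 and 2.35 points in control and -14.4, -11.2 and 6.47 points in shYY1, of both signs in each arm. Its mean differed between the arms by -3.04 points (exact permutation p = 0.9, n = 3), below the SDs of 7.67 and 11.2 points, and by 0.98 points without shYY1 replicate 1. The median length of SMC3 peaks at members was 252 ± 28.2 bp in control and 243 ± 29 bp in shYY1, a difference of -8.67 bp (exact permutation p = 0.6, n = 3). That difference was 7.58 bp without control replicate 1 and 4 bp without shYY1 replicate 1.

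**Figure D4:**
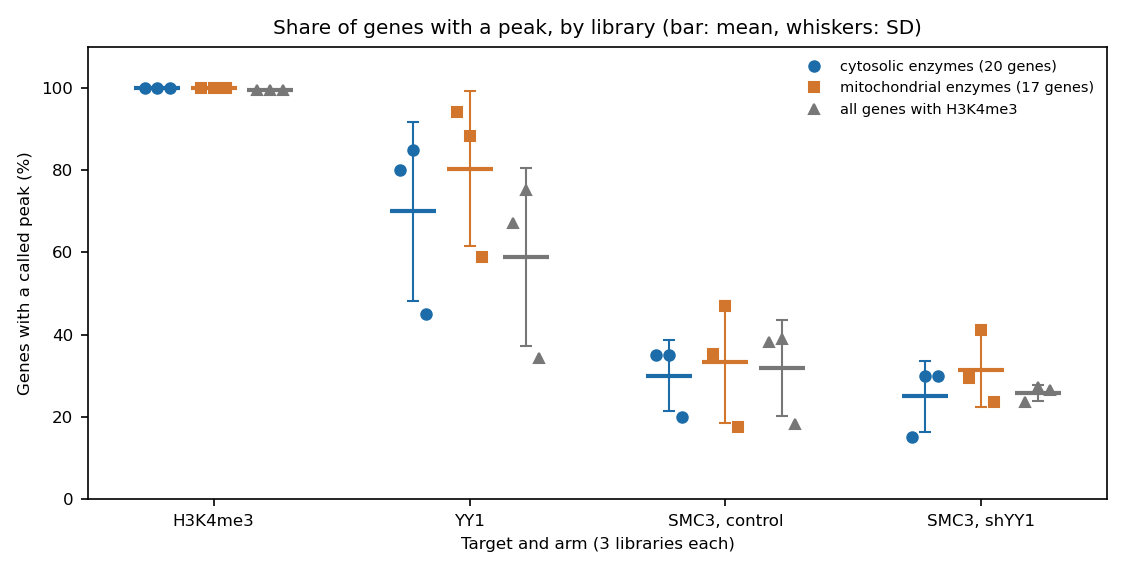
Vertical position is the percentage of genes with a called peak in a library; markers are libraries, bars means and whiskers the SD (n = 3). The YY1 shares of both enzyme classes lie above those of all genes with H3K4me3 in each library, and the SMC3 shares of the classes overlap with each other, with all genes with H3K4me3 and between the arms.

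Gene by gene, 5 members had SMC3 in 6 of 6 libraries (13.5%, against 12.8% of genes with H3K4me3). Among them were Eprs, Yars, Fars2 and, only in its distant region, Lars2. No member had it in all libraries of one arm and at most 1 of the other (1.39% of genes with H3K4me3 in the control direction and 0.198% in the shYY1 direction). Vars and Aars2 had it in 2 control libraries and no shYY1 library (5.41% of members, against 3.93%). Their control peaks were short, 233 and 183 bp at Vars and 193 and 167 bp at Aars2, and the third control library had none. Cars, Qars and Tars also had it in more control than shYY1 libraries (5 members in all, 13.5%, against 20.9%), while Farsb, the beta subunit gene of the phenylalanine enzyme, Nars2 and Dars had it in more shYY1 libraries (8.11%, against 7.58%). Cars, the cysteine enzyme gene, had 240, 144 and 177 bp in control and 165 and 156 bp in 2 shYY1 libraries. Farsb had 174 and 237 bp in 2 control libraries and 173, 188 and 237 bp in shYY1. Rars2 and Ears2 had a single SMC3 peak in each arm, of 126 to 193 bp, in the second library of each.

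At several members an end of another gene lay close to the start or gene end, so peaks there cannot be given to either gene alone. In 8 of 17 mitochondrial and 5 of 20 cytosolic members, an end of another protein-coding gene lay within 1000 bp. The distance was taken from the listed start, or from the gene end with H3K4me3 where none is listed. Either end of the neighbour counted, so its own start need not lie there. The closest were Hars with Hars2, 3 bp apart, Kars with Terf2ip, 5 bp, Rars2 with Orc3, 6 bp, and Ears2 with Ubfd1, 9 bp. Sars2 lies beside Mrps12, a mitochondrial ribosomal protein gene. YY1 was called there at 8 of 8 such mitochondrial genes and 6 of the 9 others, and at 3 of 5 such cytosolic genes and 12 of the 15 others. Over all genes with H3K4me3 and a listed start, the share was 73.6% of 2080 with such a neighbour and 51.8% of 7389 without. Control SMC3 was called there at 1 of 8 such mitochondrial genes, Fars2, which lies beside Lyrm4, and 3 of the 9 others. For cytosolic genes it was called at 2 of 5 and 4 of 15, so the classes went in opposite directions on small counts. Over all those genes the share with control SMC3 was 36.7% with such a neighbour and 24.6% without.

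Grouped by complex, the 8 enzymes of the multisynthetase complex had YY1 at 6 and control SMC3 at 2 (Eprs, and Qars through its neighbour), and the 12 free cytosolic enzymes had YY1 at 9 and SMC3 at 5. The 3 scaffold genes of the complex, Aimp1, Aimp2 and Eef1e1, all had YY1 and none had SMC3 in 2 libraries of either arm. By enzyme class, which reflects 2 unrelated folds of the catalytic domain, YY1 was called at 7 of 9 cytosolic and 7 of 9 mitochondrial class I genes, and at 7 of 10 and 7 of 8 class II genes. Eprs, which joins an enzyme of each class and had both YY1 and control SMC3, was counted in neither class. Control SMC3 was called at 4 of 9 and 2 of 9 class I genes and at 2 of 10 and 4 of 8 class II genes. Over all genes with H3K4me3 the shares were 64.8% for YY1 and 32.6% for control SMC3, and these small counts were not tested against them.

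Other genes of tRNA charging, from lists, are counted by the same rule of at least 2 of 3 libraries, beside shares over all genes with H3K4me3 of 64.8% for YY1, 32.6% for control SMC3 and 24.7% for shYY1 SMC3. Of the 4 genes that make glutaminyl-tRNA indirectly or formylate the initiator in mitochondria, all had H3K4me3, and YY1 was called at 2, Gatb and Gatc, with 3 and 2 libraries. Of 5 synthetase-like, editing and deacylating genes, 4 had YY1, and Tarsl2, a second cytosolic threonine enzyme gene, had SMC3 in 2 control and 3 shYY1 libraries. Of 4 selenocysteine genes 3 had YY1 and none had SMC3 in 2 libraries of an arm. Of 19 genes of tRNA maturation and export, all had H3K4me3, 12 had YY1 and 6 had SMC3 in each arm, near those shares. Among these Rpp14 and Rpp38, subunits of ribonuclease P, and Tsen54, a subunit of the splicing endonuclease, had SMC3 in all 6 libraries. Of 13 genes of the amino acid response, 9 had H3K4me3, 5 had YY1 and 3 had SMC3 in each arm. Asns, Chac1 and Slc7a11 had no H3K4me3 in any library and Cebpb had it in 1. Atf4, the factor that activates cytosolic synthetase genes when amino acids are short, had YY1 in 3 libraries and no SMC3. Ddit3, whose span overlaps the lower end of Mars1 on chromosome 10, had SMC3 in all 6 libraries, and Mars1 in none. Eef1a1, which delivers charged tRNA to the ribosome, had YY1 and SMC3 in every library, whereas its mitochondrial counterpart Tufm had YY1 in 2 and SMC3 in 1 control library.

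Lists held 16763 to 17895 peaks for H3K4me3, 3750 to 10699 for YY1, 2061 to 4595 for control SMC3 and 2631 to 3213 for shYY1 SMC3. With positions alone and no heights or reads given, the depth of each library is unknown, and an absent peak means only that none was called. The 12 blood progenitor genes listed as markers of the line all had H3K4me3, while 0 of 4 pluripotency genes and 2 of 12 genes of other cell types did (Cd4 and Syp). Replicate 1 of SMC3 is the one described with the supplier Abcam, in control and in shYY1, and the descriptions of replicates 2 and 3 do not repeat it. Without these 2 libraries the difference in the members' SMC3 share was 1.35 points (exact permutation p = 1.0, n = 2).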

How the data were processed

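The deposited files are peak lists, 1 per library, in which the authors' values are positions: start, end and the offset of the summit from the start in bp, per the file headers. They hold no score. The build mm10, MACS2 2.2.9.1, Bowtie2 2.5.1, cutadapt 4.5 and Picard 3.1.1 are listed, per the submitters' processing notes. No source used here gives the settings, the threshold or any use of IgG. Running peak numbers had 49 to 99 gaps per list, so some called peaks were removed before deposit. Starts were shifted to count from 1.

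Gene spans were those of RefSeq on GRCm38.p6, without exons; listed starts and strands came from its promoter table, which held 27 of 37 members. For the other 10, either span end was used. A peak counted when it overlapped a gene or 2500 bp beyond it by at least 1 bp, and a gene was called with peaks in at least 2 of 3 libraries. Shares per library were compared between arms with exact two-sided permutation tests over 20 assignments; with 3 libraries a group, these measure the spread between libraries, which the labels' protocol calls biological replicates. The calculations were tested on simulated lists over 21883 genes, in which all 200 chosen genes got back their planted number of libraries. For some of them no peak was planted. The chosen genes lay apart from other genes, so peaks shared with a neighbour were not tried. Values per library were named for members with SMC3 in all 6 libraries or unequal between arms, without YY1, with the longest YY1 or SMC3 peaks, with the broadest H3K4me3 or with shared peaks; some further members were named after their values were seen. Promoters were printed for 3 members with SMC3 at the listed start in all 6 libraries and for the 2 members with YY1 in no library. The members and lists were chosen with earlier results of these data known. Alternatives covered the window, the overlap, the number of libraries, longer peaks, equal list lengths, left-out libraries and a replicate block; counting only peaks within 1000 bp of a start was added after the data were seen. Python 3.11.15, pandas 2.3.3 and numpy 2.4.6 were used. The values of 1 member, which the counts include and the figures of single genes leave out, are not reported here.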

Additional observations from a re-analysis of the deposited data

How the results depend on the processing

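The H3K4me3 counts and the mitochondrial YY1 count stayed within 1.5 times their main values in all 10 alternatives run for each. The mitochondrial YY1 count (14) still fell to 10 with only the longer peaks of each list and to 10 in 3 of 3 libraries. With 1 library left out it was 10 to 14 (10 without replicate 1 or 2). Cytosolic genes with YY1 (15) numbered 9 when each list kept only its longer peaks and 9 when called in 3 of 3 libraries, and 9 to 15 with 1 library left out (9 without replicate 1 or 2), where every remaining library had to have the peak, a stricter rule by construction. Control SMC3 was called at 2 cytosolic genes with the longer peaks, at 4 in 3 of 3 libraries and at 4 to 7 with 1 library left out (4 without replicate 1 or 2); the 6 mitochondrial genes became 3 in 3 of 3 libraries and 3 to 6 with 1 library left out (3 without replicate 1 or 2). For shYY1 SMC3 the 5 cytosolic genes became 1 with the longer peaks, 3 in 3 of 3 libraries and 3 to 5 with 1 library left out (3 without replicate 2 or 3), and the 5 mitochondrial genes 3 with the longer peaks and 3 within 1000 bp of a start. The causes were not tested.

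The difference in the members' SMC3 share (-3.60 points) was 1.35 without both libraries named Abcam and -9.91 to 0.90 with 1 library left out (0.90 without control replicate 2). The class difference (-3.04 points) was 0.29 with the longer peaks, 2.25 with equal numbers of longest SMC3 peaks (2061 per list), 2.5 without the Abcam libraries and -9.46 to 0.98 with 1 library left out (0.98 without shYY1 replicate 1). The difference in median peak length (-8.67 bp) was 32.3 with the longer peaks, 64.5 with equal numbers, 20.2 without the Abcam libraries, -57 within 2500 bp and -43.2 within 1000 bp of a start, and -24.5 to 7.58 with 1 library left out (7.58 without control replicate 1, 4 without shYY1 replicate 1). Each of these 3 differences changed sign under at least 1 alternative, and none could pass 0.05.

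With the replicate number as a block the share difference of -3.60 points had an exact sign-flip permutation p of 0.75 (n = 3). The sign-flip permutation p was 1.0 for the class difference of -3.04 points and 0.75 for the length difference of -8.67 bp. With 8 assignments this test could not pass 0.05, so it could not have changed a call. Same-numbered SMC3 libraries of the arms correlated in their deviations over 5773 genes by -0.01, 0.01 and -0.05. These values gave no sign of pairing by number, but they cannot show whether the libraries were prepared as pairs. A stricter score threshold was not run, since the lists hold no score; the longer peaks stood in for it.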
